A study of Mus musculus with 9 samples.

Results

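The transcription factors that set up and hold the macrophage lineage were followed as 9 genes: Spi1, Irf8, Runx1, Cebpa, Cebpb, Maf, Zeb2, Id3 and Nr1h3. They were chosen by symbol, and all 9 were found among the 24411 genes of the deposited table. Transcript levels were measured by bulk RNA-seq in 9 cultures of mouse macrophages, 3 YS lines from the yolk sac of the embryo, 3 FL lines from the liver of older embryos and 3 BM lines from adult bone marrow. All lines came from C57BL/6 mice, with no engineered allele named in the sources used here, had been expanded from cells pooled over more than one mouse, and grew on 100 ng/mL of M-CSF, which these macrophages need to survive, without any other stimulus. A line was a bulk culture grown in its own dish or well, so lines of a group may go back to the same cell pool, and p-values measure only the spread between these cultures. The age of the donor, the tissue and the growth of the line in culture cannot be told apart in this design.

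PU.1, the ETS factor encoded by Spi1, opens and marks the enhancers of myeloid cells, and most other factors of macrophages bind beside it. IRF8 joins PU.1 on composite sites, RUNX1 acts upstream of Spi1 when blood stem cells first form, and the C/EBP factors turn progenitors towards the myeloid fate. On that shared base, c-MAF (Maf), ZEB2, ID3 and LXRα (Nr1h3) belong to the programs of resident macrophages. ZEB2 maintains the expression of LXRα in Kupffer cells, ID3 is needed for Kupffer cell development, and c-MAF restrains the self-renewal of macrophages.

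The authors deposited levels as TPM, a unit that divides reads by transcript length and gives every library the same total, so levels of different genes can be set beside each other. TPM keeps no record of read number. The depth behind each value is therefore unknown, and precision was judged from the 3 lines of a group. All 10 macrophage markers examined reached at least 1 TPM in every line. Of 44 markers of other cell types in the table, 32 stayed under 1 TPM in every line, 9 of them at 0 in every line, and 4 reached 10 TPM in some line. Some of their summed levels moved with the groups. The 4 endothelial markers summed to 5.37 to 56.0 TPM in the YS lines and 18.9 to 51.8 TPM in the FL lines. In the BM lines they summed to 0.08 to 1.70 TPM, and Tek was under 1 TPM throughout. Kdr made up most of the sum in the FL lines, at 17.4 to 50.4 TPM. In the YS lines Kdr was at 0.29, 16.1 and 54.4 TPM. Pecam1 was at 4.91, 8.17 and 0.29 TPM in the YS lines, at most 0.25 TPM in the FL lines and at most 0.56 TPM in the BM lines. The 4 monocyte markers summed to 1.55 to 7.92 TPM in the YS lines, 0.40 to 2.07 TPM in the FL lines and 0.04 to 0.28 TPM in the BM lines. The 5 dendritic cell markers summed to 7.37 to 8.32 TPM in the YS lines, 2.88 to 7.50 TPM in the FL lines and 3.47 to 4.10 TPM in the BM lines, with Flt3 at 0 in every line. The 3 megakaryocyte markers were at 2.37 to 4.00 TPM in the YS lines and at most 1.00 TPM in the others. The 7 neutrophil markers in the table summed to at most 2.51 TPM in the YS lines, 10.6 to 25.6 TPM in the FL lines and 3.66 to 5.00 TPM in the BM lines, with S100a9, Elane and Ngp at 0 in every line. Whether any cells of these types were present, or had a part in the differences between groups, was not tested.

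A pair of libraries stood apart from the others of their group. BM line 2 held RNA of many genes that BM lines 1 and 3 lacked. A set of 45 genes was formed after the data were seen. They were below 0.5 TPM in both of these lines but at 20 TPM or more in YS line 2. In BM line 2 their level was a median of 14.1% of that in YS line 2, with quartiles of 10.7% and 17.7%. No other line was used as the reference, and the source of this RNA was not tested. BM line 2 also carried 215 TPM summed over the erythroid markers. YS line 1 differed from YS lines 2 and 3 in several of the genes below, while YS line 3 was apart for Cebpa and YS line 2 for Runx3. The correlation of log2(TPM + 1) between YS lines was as low as 0.912. It was at least 0.947 among FL lines and at least 0.975 among BM lines. Which pair of YS lines was lowest is not given here. The called differences that changed most without BM line 2 or YS line 1 are also given without that line.

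Spi1 was the highest of the 9 factors in each group, at a mean of 394 ± 31.7 TPM in the YS lines, 444 ± 11.4 TPM in the FL lines and 389 ± 24.4 TPM in the BM lines (SD, n = 3). Id3 was next in each group, at 278 ± 134, 314 ± 125 and 287 ± 69.2 TPM. Their ranges overlapped in YS lines only. In YS and FL lines Maf followed, and its range overlapped that of Id3. In BM lines Maf took the sixth place, where its range overlapped those of Cebpa above it and Irf8 below it. Cebpb, Irf8, Zeb2, Cebpa and Runx1 followed each other with overlapping ranges in YS lines, between group means of 77.1 and 39.7 TPM. Cebpa and Cebpb overlapped in FL lines, as did Cebpb and Zeb2. Runx1 was the lowest of the 8 factors above the filter in each group, and overlapped Cebpa in YS lines and Irf8 in BM lines. Nr1h3 was far under all others, at group means between 0.387 and 1.02 TPM.

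**Figure D1:**
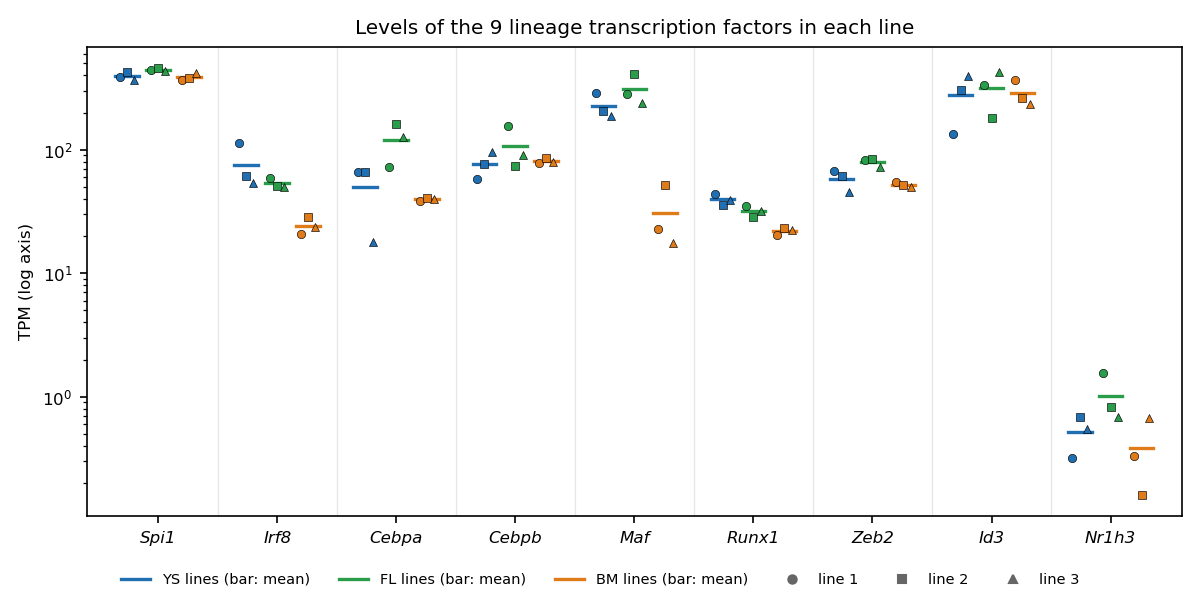
TPM of the 9 factors on a log axis, with 1 point for each line (circle, square and triangle for lines 1, 2 and 3) and a bar for the mean of each group. Spi1 sits between 364 and 456 TPM in all lines, Maf is lowest in the 3 BM lines at 17.4 to 51.4 TPM, and Nr1h3 stays between 0.16 and 1.56 TPM.

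Differences between groups were tested with limma on log2(TPM + 1), a scale that understates changes of genes with low TPM, over the 11753 genes that reached 1 TPM in 3 or more of the 9 libraries. Of the 9 factors, 8 passed that filter, and Nr1h3 did not. A gene was called at a false discovery rate under 0.1 with a change of more than 2-fold. Between YS and BM lines 2 of the 8 factors were called, Maf and Irf8, both higher in YS lines, where 12.8% of all genes tested were called and 7.57% were called as higher in YS lines. Between FL and BM lines 3 of the 8 were called, Maf, Irf8 and Cebpa, all higher in FL lines, beside 10.3% of all genes and 6.01% called as higher in FL lines. None of the 8 was called between YS and FL lines in the limma test, where 3.79% of all genes were, 1.95% as higher and 1.85% as lower in YS lines. In that comparison none of the 8 passed the false discovery rate at any fold, as 12.8% of all genes did. Cebpa, Runx1 and Zeb2 had an unadjusted p under 0.05 by limma, and the share of all genes at that p was not taken. No factor was called as lower in YS or FL lines than in BM lines, where 5.22% and 4.3% of all genes were. The median log2 difference of all genes was 0.11 for YS against BM lines, 0.09 for FL against BM lines and 0.02 for YS against FL lines, and quantile normalization moved the first of these to -0.01. The comparisons share their groups of lines and are not independent of each other.

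**Figure D2:**
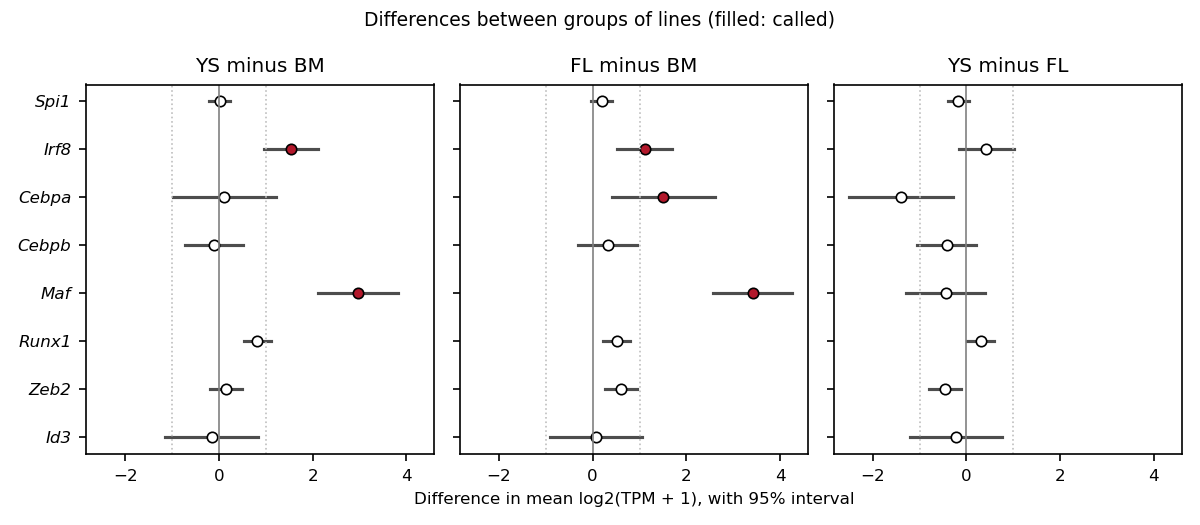
Difference in mean log2(TPM + 1) between groups of 3 lines for the 8 factors tested, with its 95% interval from limma; filled points were called, open points were not, and dotted lines mark 2-fold. Maf lies near 3 in both comparisons with BM lines, Irf8 and Cebpa are the other called factors, and Spi1 lies near 0 with the narrowest intervals.

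Spi1 was among the steadiest genes of the table. It stood at 391, 427 and 364 TPM in the YS lines 1 to 3. In FL lines it stood at 444, 456 and 433 TPM, and in BM lines at 369.9, 382 and 417 TPM. All FL lines were above all YS and BM lines, and the YS and BM lines overlapped. The highest line was 1.25-fold over the lowest. On log2(TPM + 1) only 1.70% of the tested genes had a smaller range over the lines. By limma, the log2 difference was 0.02 between YS and BM lines (95% interval -0.21 to 0.24), a value whose sign turned under both other scalings. It was 0.19 between FL and BM lines (-0.03 to 0.41) and -0.18 between YS and FL lines (-0.40 to 0.05), with adjusted p-values of 0.918, 0.207 and 0.287 in limma. All 3 intervals lie well inside 2-fold.

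Irf8, whose product partners PU.1 and is needed for monocytes and dendritic cells, was lower in BM lines than in either embryonic group. It was at 112, 61.8 and 53.4 TPM in the YS lines, at 58.7, 51.3 and 50.2 TPM in the FL lines, and at 20.8, 28.5 and 23.7 TPM in the BM lines. Every YS and FL line was above every BM line, YS line 1 was far above the others, and YS and FL lines overlapped. The mean was 3.12-fold higher in YS than in BM lines, with a log2 difference of 1.54 (SE 0.26, 95% interval 0.95 to 2.12, adjusted p = 0.00482 by limma). For FL against BM lines the mean was 2.20-fold higher, with a log2 difference of 1.11 (SE 0.26, 0.53 to 1.69, adjusted p = 0.0177 by limma). Both calls held when any 1 line was left out. Without YS line 1 the difference of YS from BM lines was 1.22, and without BM line 2 it was 1.65. The call for FL against BM lines stood close to the 2-fold threshold. Its log2 difference fell to 1.01 over these fits, with adjusted p-values up to 0.0744 in limma. Under quantile normalization it was 1.01, and under median-of-ratios scaling 1.02. The excess of BM line 2 over the mean of BM lines 1 and 3 came to 10.1% of the Irf8 level in YS line 2. Between YS and FL lines the difference was 0.43 (-0.16 to 1.01, adjusted p = 0.322 by limma).

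Runx1, a core factor of blood formation in the embryo, was ordered YS above FL above BM, with no overlap between any pair of groups. YS lines had 44.2, 36.0 and 39.0 TPM. FL lines had 35.3, 28.6 and 32.1 TPM, and BM lines 20.6, 23.2 and 22.4 TPM. Its differences from BM lines passed the false discovery rate but stayed under 2-fold, so Runx1 was not called. The mean was 1.80-fold higher in YS lines, with a log2 difference of 0.82 (SE 0.13, 0.53 to 1.10, adjusted p = 0.00370 by limma), and 1.45-fold higher in FL lines, with 0.51 (0.23 to 0.80, adjusted p = 0.0219 by limma). Such a pass at any fold was given to 37.9% of all genes for YS against BM lines and to 27.6% for FL against BM lines. Under quantile normalization the differences were 0.68 and 0.42. YS and FL lines differed by 0.30 (0.02 to 0.59, adjusted p = 0.173 by limma).

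Promoter sequence was read from RefSeq on GRCm38.p6 as the 250 bases before a transcription start, and 7 of the 9 factors had such windows. Spi1 and Maf had none. The genome build behind the deposited TPM is not given in the sources used here, so the positions belong to the RefSeq table alone. The windows were searched on both strands for 7 motifs, and among all 32817 mouse windows of that length GAGGAAG (PU.1) occurred in 10.6%, TTGCNNAA (C/EBP) in 9.57%, TGTGGT (RUNX) in 14.0%, GAAA, any 2 bases and GAAA (IRF) in 2.97%, TTCNNNGAA (GAS, the site of STAT factors) in 7.01%, TGCTGAC (MAF) in 3.81% and CAGGTG (ZEB) in 17.2%. The windows of Irf8 and Runx1 are shown because these genes were lower in BM lines than in both embryonic groups. Irf8 has 2 windows, at chr8:120736108-120736357 and chr8:120738389-120738638 on the plus strand, and Runx1 has one for each of its starts, at chr16:92826075-92826324 and chr16:92697330-92697579 on the minus strand. They are written 5′ to 3′ on the strand of the gene, with motif matches in capitals.
Irf8, start 1: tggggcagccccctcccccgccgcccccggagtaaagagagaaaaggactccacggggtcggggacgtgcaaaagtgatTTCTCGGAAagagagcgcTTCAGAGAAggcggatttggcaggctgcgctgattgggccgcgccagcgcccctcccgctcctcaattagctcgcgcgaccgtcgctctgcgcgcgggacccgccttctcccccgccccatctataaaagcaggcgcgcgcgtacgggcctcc
Irf8, start 2: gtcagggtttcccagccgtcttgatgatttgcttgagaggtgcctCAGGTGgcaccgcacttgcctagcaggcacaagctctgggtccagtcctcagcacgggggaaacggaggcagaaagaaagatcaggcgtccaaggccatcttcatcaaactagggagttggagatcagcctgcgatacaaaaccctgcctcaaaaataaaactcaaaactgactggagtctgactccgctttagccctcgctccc
Runx1, start 1: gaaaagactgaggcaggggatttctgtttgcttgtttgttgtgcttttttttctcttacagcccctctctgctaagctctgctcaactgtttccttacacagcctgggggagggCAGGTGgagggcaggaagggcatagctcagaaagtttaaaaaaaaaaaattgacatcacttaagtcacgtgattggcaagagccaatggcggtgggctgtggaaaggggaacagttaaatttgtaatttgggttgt
Runx1, start 2: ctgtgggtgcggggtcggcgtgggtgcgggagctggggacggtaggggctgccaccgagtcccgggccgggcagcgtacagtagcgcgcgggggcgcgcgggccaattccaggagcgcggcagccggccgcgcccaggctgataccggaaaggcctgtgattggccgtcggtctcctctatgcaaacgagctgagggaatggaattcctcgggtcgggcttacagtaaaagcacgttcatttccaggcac
The first Irf8 window held 2 GAS matches that do not overlap each other, TTCTCGGAA from 171 to 163 bases and TTCAGAGAA from 153 to 145 bases before the start. The second held 1 ZEB match, CAGGTG from 205 to 200 bases before the start. The first Runx1 window held 1 ZEB match, CAGGTG from 136 to 131 bases before the start, and the second held none of the 7 motifs. These matches describe letters and not bound sites, and the gene level values do not say which start was used.

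The C/EBP pair varied widely among the embryonic lines and little among the BM lines. Cebpa, which drives progenitors into the myeloid path, was at 66.0, 66.3 and 17.8 TPM in the YS lines. It was at 72.8, 162 and 128 TPM in the FL lines, and at 38.4, 41.0 and 39.6 TPM in the BM lines. All FL lines were above all YS and BM lines, YS line 3 was the lowest of all lines, and the BM lines were nearly equal. The mean was 3.05-fold higher in FL than in BM lines, with a log2 difference of 1.51 (SE 0.48, 0.41 to 2.61, adjusted p = 0.0599 by limma). That call was lost in 5 of the 9 fits that left out 1 line, those without FL line 2, FL line 3 or any of the BM lines, with adjusted p-values up to 0.163 in limma. Between YS and BM lines the difference was 0.11 (-0.99 to 1.21, adjusted p = 0.879 by limma), and its sign turned to -0.02 under quantile normalization. Between YS and FL lines it was -1.40 (-2.50 to -0.30, adjusted p = 0.118 by limma), which passed the thresholds without YS line 2 (adjusted p = 0.0925 by limma) and without FL line 1 (0.0916).

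The single Cebpa window, shown because Cebpa was a called factor, lies at chr7:35119043-35119292 on the plus strand of GRCm38.p6 and held none of the 7 motifs, so it carries no capitals.
Cebpa, start 1: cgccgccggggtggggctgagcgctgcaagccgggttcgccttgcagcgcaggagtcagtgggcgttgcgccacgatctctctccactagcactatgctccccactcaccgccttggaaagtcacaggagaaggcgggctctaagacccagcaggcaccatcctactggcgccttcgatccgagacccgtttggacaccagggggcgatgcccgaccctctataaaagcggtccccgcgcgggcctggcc
Elsewhere among the 9 factors, the PU.1 letters stood in windows of Zeb2 and Id3, the C/EBP and GAS letters in windows of Zeb2, and the ZEB letters in windows of Nr1h3.

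Cebpb, which is induced as macrophages mature and are activated, did not separate the groups. It was at 57.8, 77.2 and 96.3 TPM in the YS lines, at 157, 73.7 and 90.4 TPM in the FL lines, and at 78.4, 85.8 and 79.5 TPM in the BM lines. FL line 1 was high and YS line 1 was low, and the BM lines fell inside the range of both other groups. The log2 differences were -0.10 for YS against BM lines (-0.73 to 0.52), 0.32 for FL against BM lines (-0.31 to 0.94) and -0.42 for YS against FL lines (-1.05 to 0.20), with adjusted p-values of 0.802, 0.461 and 0.359 in limma. The balance of the pair was taken as the log2 ratio of Cebpb to Cebpa within a line, with 1 TPM added to each gene. It was 1.01, 1.05 and 0.99 in the BM lines. It ranged from -0.19 to 2.37 in YS lines and from -1.13 to 1.09 in FL lines, so both embryonic groups spanned the BM value. By exact two-sided permutation, p was 1 for YS against BM lines and 0.4 for both FL against BM and YS against FL lines, where 0.1 is the smallest p that 3 lines against 3 allow.

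Maf showed the largest difference of the 9 factors. YS lines had 286, 205 and 188 TPM. FL lines had 283, 407 and 241 TPM, and BM lines had 23.0, 51.4 and 17.4 TPM. The YS and FL lines overlapped, and all of them were above the BM lines, of which line 2 was highest. The mean was 7.38-fold higher in YS than in BM lines, with a log2 difference of 2.97 (SE 0.37, 2.12 to 3.82, adjusted p = 0.00201 by limma). In FL lines it was 10.1-fold higher than in BM lines, with 3.41 (SE 0.37, 2.56 to 4.26, adjusted p = 0.000987 by limma). YS and FL lines differed by -0.44 (-1.29 to 0.41, adjusted p = 0.476 by limma). The highest Maf level was 23.3-fold over the lowest. On log2(TPM + 1) its range over the 9 lines was wider than that of 96.5% of the tested genes. In BM line 2 the excess of Maf over BM lines 1 and 3 came to 15.3% of the level in YS line 2. The median was 14.1% for the 45 genes nearly absent from BM lines 1 and 3. For Runx1, Cebpa and Zeb2 the same excess was 4.81%, 2.99% and -0.65%. BM lines 1 and 3 already expressed these genes at a large part of their YS line 2 level. Their excess cannot be set beside that of genes nearly absent from BM lines 1 and 3. What the excess in BM line 2 came from was not tested. Without BM line 2 the differences from BM lines were 3.41 for YS and 3.85 for FL lines, and both calls held with any 1 line left out.

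Genes known to depend on MAF factors in macrophages were mostly higher in the embryonic lines, as Maf was. Of the 10 listed, 6 passed the filter. Among these 6, 4 were called as higher in YS and 5 as higher in FL than in BM lines, against 7.57% and 6.01% of all genes. Their median log2 difference was 2.27 and 2.90, against 0.11 and 0.09 for all genes. C1qa, C1qb and C1qc, which encode the chains of complement C1q, rose in both groups. C1qa was at 1039, 2750.4 and 3533 TPM in the YS lines, 4762, 1994 and 3843 TPM in the FL lines, and 444, 670.5 and 279.7 TPM in the BM lines, with log2 differences from BM lines of 2.30 (SE 0.52, adjusted p = 0.0142 by limma) and 2.92 (adjusted p = 0.00599). Mrc1, the mannose receptor, was between 268 and 567 TPM in YS and FL lines, listed at 0 in BM line 1, and at 40.2 and 0.06 TPM in the BM lines 2 and 3. Its differences of 6.48 and 7.20 rest on values near the pseudocount, ranged down to 5.57 and 6.29 over the fits with 1 line left out, and became 8.25 and 8.97 without BM line 2. Folr2, a folate receptor of resident macrophages, was at 223, 247 and 413 TPM in the FL lines and at most 5.55 TPM in the BM lines (6.58, SE 0.98, adjusted p = 0.00302 by limma). In YS lines it spread from 3.26 to 79.7 TPM and was not called against BM lines (2.23, adjusted p = 0.122 by limma). It was called as lower in YS than in FL lines, a call that was lost without FL line 2 or FL line 3. Il10, the sixth tested gene, was not called. Timd4, a marker of resident macrophages of the liver and peritoneum, failed the filter. It reached 56.4 and 21.7 TPM in the FL lines 2 and 3, against at most 0.08 TPM in any other line. Cd163, Lyve1 and F13a1 failed the filter as well. Cd163 was at most 0.06 TPM and Lyve1 at most 0.12 TPM in any line. F13a1 was at most 3.32 TPM in YS, 0.48 TPM in FL and 0.14 TPM in BM lines.

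**Figure D3:**
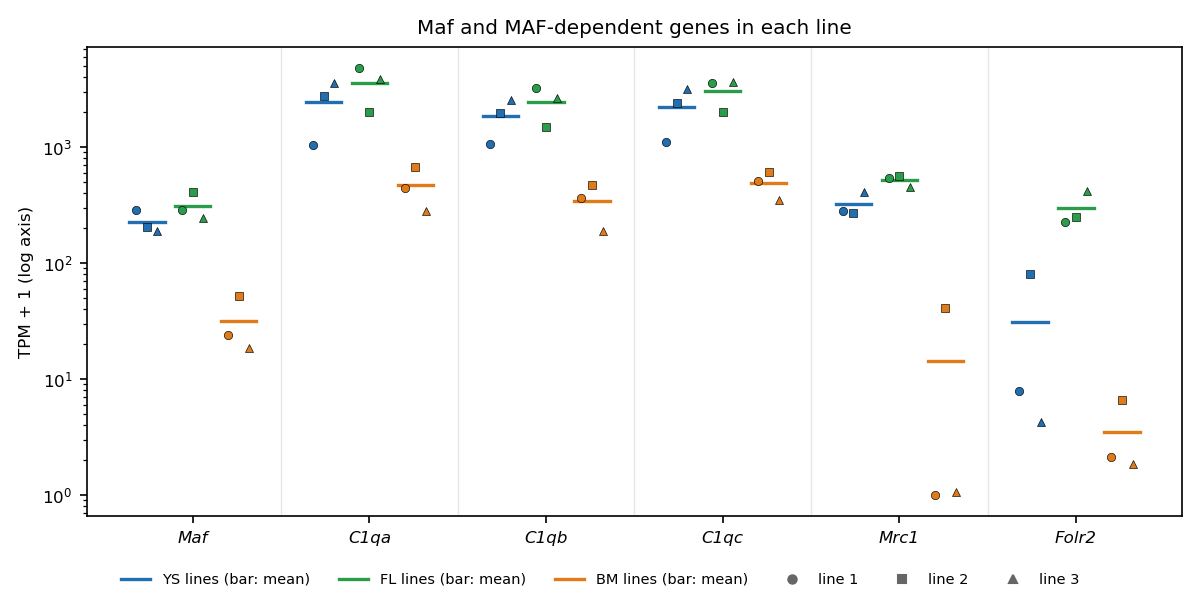
Maf and the MAF-dependent genes C1qa, C1qb, C1qc, Mrc1 and Folr2 in each line, as TPM + 1 on a log axis, with the mean of each group as a bar. BM lines lie under YS and FL lines for Maf, the C1q genes and Mrc1, where BM line 2 is the highest BM line at 51.4 TPM for Maf.

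Zeb2, the repressor that keeps resident macrophage identity, was highest in FL lines. It was at 67.8, 61.8 and 45.8 TPM in the YS lines, at 82.6, 84.1 and 72.8 TPM in the FL lines, and at 54.8, 51.8 and 49.6 TPM in the BM lines. FL lines were above all YS and BM lines, and the last 2 groups overlapped. The FL mean was 1.53-fold over the BM mean, with a log2 difference of 0.61 (SE 0.15, 0.27 to 0.94, adjusted p = 0.0231 by limma), so it passed the false discovery rate and missed 2-fold. The difference was 0.15 between YS and BM lines (-0.19 to 0.49, adjusted p = 0.484 by limma) and -0.46 between YS and FL lines (-0.80 to -0.12, adjusted p = 0.103 by limma). The last of these passed the false discovery rate under quantile normalization (adjusted p = 0.0710) and median-of-ratios scaling (0.0752), still under 2-fold. Zeb2os, an antisense transcript that overlaps Zeb2, was at 14.5 to 21.8 TPM in the YS lines, 37.2 to 38.5 TPM in the FL lines and 9.80 to 12.4 TPM in the BM lines. The libraries keep strand, but the strand setting of the counting is not stated, so reads from the overlap of the pair cannot be told apart.

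Id3, an inhibitor that binds E proteins and keeps them off DNA, was high in all lines with no order of the groups. YS lines had 133, 304 and 397 TPM. FL lines had 332, 182 and 429 TPM, and BM lines had 365, 262 and 233 TPM. The 3 groups overlapped throughout, and YS line 1 was lowest. The log2 differences were -0.16 for YS against BM lines (-1.14 to 0.83), 0.07 for FL against BM lines (-0.92 to 1.06) and -0.23 for YS against FL lines (-1.21 to 0.76), with adjusted p-values of 0.811, 0.928 and 0.764 in limma. The second turned to -0.02 under median-of-ratios scaling. Each of these intervals reaches past 2-fold in one direction only.

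Nr1h3, which encodes the oxysterol receptor LXRα of Kupffer cells and other resident macrophages, was near the bottom of the table. It was at 0.32, 0.68 and 0.55 TPM in the YS lines, at 1.56, 0.82 and 0.69 TPM in the FL lines, and at 0.33, 0.16 and 0.67 TPM in the BM lines. FL line 1 alone was above 1 TPM, and FL lines did not overlap BM lines. With the filter removed, none of the 3 comparisons passed, and the largest was FL against BM lines at a log2 difference of 0.54 (0.08 to 0.99, adjusted p = 0.127 by limma). Nr1h2, which encodes the widely expressed LXRβ, was at 68.2 to 99.9 TPM in the YS lines, 82.3 to 110.1 TPM in the FL lines and 85.1 to 88.6 TPM in the BM lines. The log2 ratio of Nr1h2 to Nr1h3, with 1 TPM added to each, was 5.80 ± 0.20, 5.61 ± 0.51 and 6.01 ± 0.30 in YS, FL and BM lines (SD, n = 3), and the exact permutation p was at least 0.3 in each comparison.

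Target genes of the LXR receptors were expressed in part. Of 16 listed, 13 passed the filter, with 2 called as higher and 1 as lower in YS than in BM lines, 3 called as higher in FL than in BM lines and 2 as lower in YS than in FL lines. Over all genes, 12.8%, 10.3% and 3.79% were called in these comparisons. The median log2 difference of the LXR targets was 0.79, 0.74 and 0.16, against 0.11, 0.09 and 0.02 for all genes. Abca1, the cholesterol exporter, was at 62.8 to 73.7 TPM in the YS lines, 75.2 to 77.5 TPM in the FL lines and 35.5 to 44.6 TPM in the BM lines, and passed the false discovery rate under 2-fold in both comparisons with BM lines (0.80, adjusted p = 0.00291, and 0.95, adjusted p = 0.00135, by limma). Mertk, the receptor for apoptotic cells, was highest in FL lines, at 52.3, 90.5 and 48.1 TPM, against 11.0 to 21.9 TPM in the YS lines and 9.67 to 20.5 TPM in the BM lines. It was called for FL against BM lines (1.99, SE 0.35, adjusted p = 0.00586 by limma) and for YS against FL lines (-1.82, adjusted p = 0.0324). Smpdl3a, a secreted nucleotide phosphodiesterase, was listed at 0 in YS line 1 and at 0.09 and 0.10 TPM in the YS lines 2 and 3, while FL lines had 277 to 621 TPM and BM lines 166 to 243 TPM. These calls of Mertk and the lower level of Smpdl3a in YS lines held with any 1 line left out. Of the other called genes, Apoe, Fasn, Cd5l and Smpdl3a for FL against BM lines each lost the call without 1 or more single lines, and under both other scalings 1 LXR target was called for YS against BM lines.

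**Figure D4:**
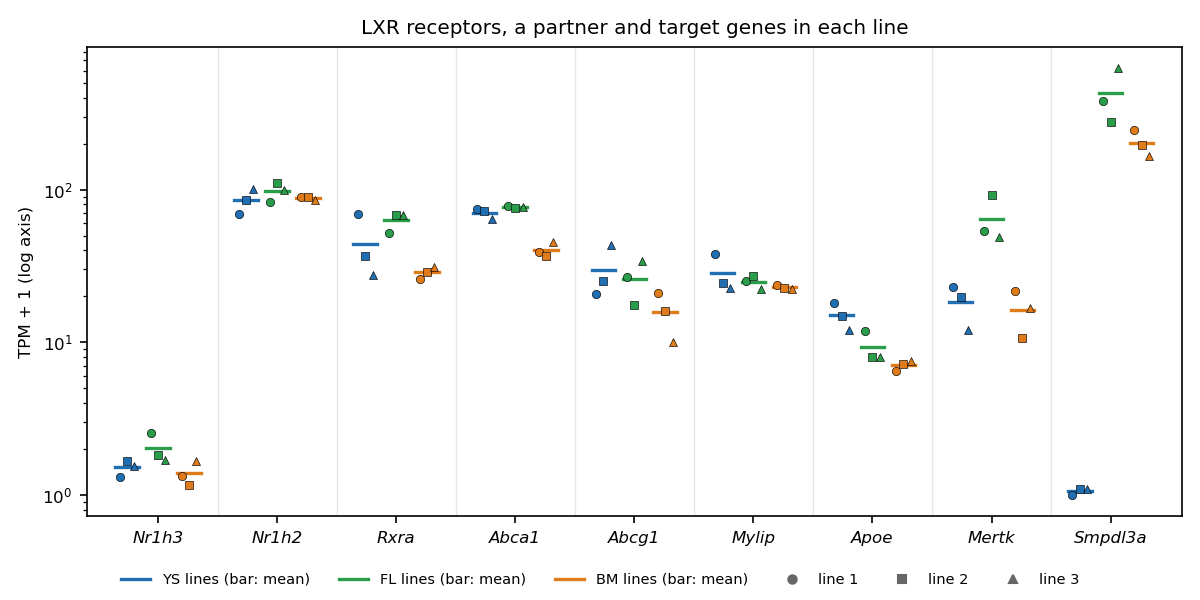
Both LXR receptor genes, the partner gene Rxra and 6 LXR target genes in each line, as TPM + 1 on a log axis, with group means as bars. Nr1h3 lies near the bottom in every line and Nr1h2 between 68.2 and 110.1 TPM, and Smpdl3a is at most 0.10 TPM in the YS lines against 166 to 621 TPM in FL and BM lines.

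Of 25 relatives and partners of the 9 factors, 22 passed the filter. Between YS and BM lines 3 were called as higher and 1 as lower, between FL and BM lines 6 as higher and 2 as lower, and between YS and FL lines 2 as higher and 1 as lower in YS lines. Over all genes, 12.8%, 10.3% and 3.79% were called in these comparisons. The median log2 differences were 0.19, 0.32 and -0.03, against 0.11, 0.09 and 0.02 for all genes. Spic, the PU.1 relative that marks iron-recycling macrophages, was the one lower in both embryonic groups. It was at 14.6, 8.81 and 13.3 TPM in the BM lines and at most 1.36 TPM in YS and 1.20 TPM in the FL lines, with log2 differences of -3.06 (SE 0.40, adjusted p = 0.00230) and -3.32 (adjusted p = 0.00137) by limma. Irf4, the closest relative of Irf8, was at 0.75 to 3.82 TPM in the FL lines and at most 0.03 TPM in the BM lines, and was called for FL lines (1.68, adjusted p = 0.0194 by limma).

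Of 2 further C/EBP genes, Cebpd was higher in both embryonic groups and Cebpe in YS lines than in BM lines. Cebpd was at 45.0 to 69.8 TPM in the YS lines, 46.6 to 55.1 TPM in the FL lines and 21.0 to 24.6 TPM in the BM lines, with log2 differences from BM lines of 1.16 (adjusted p = 0.00358) and 1.11 (adjusted p = 0.00385) by limma. Without YS line 1 the first of these was 0.96 and no longer over 2-fold. Cebpe, a factor of granulocyte maturation, was at 25.1, 8.35 and 1.48 TPM in the YS lines, at most 1.33 TPM in the FL lines, and in BM lines 1 to 3 it was listed at 0, 0.23 and 0 TPM. It was called for YS against BM lines (2.98, adjusted p = 0.0172 by limma), and over the 9 fits with 1 line left out the difference ranged from 2.17, without YS line 1, to 3.87 and was still called. FL lines were not called against BM lines (0.72, 95% interval -0.90 to 2.33, adjusted p = 0.526 by limma). The call for YS against FL lines was lost in 8 of the 9 fits that left out 1 line. YS line 1 also had the highest level of Csf3r, the receptor for G-CSF and a C/EBP target, at 18.5 TPM against 6.42 and 0.29 TPM in the other YS lines, and Csf3r failed the filter.

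The relatives of Runx1 were called in different comparisons. Runx3 was at 26.0, 3.32 and 18.0 TPM in the YS lines and at most 0.29 TPM in FL and 0.14 TPM in the BM lines. It was called as higher in YS lines against BM lines (3.64, SE 0.59, adjusted p = 0.00442 by limma) and against FL lines (3.56, adjusted p = 0.0225), in every fit with 1 line left out, where the differences ranged from 3.12 to 4.44 and from 3.04 to 4.36. Runx2 was lower in FL lines, at 1.07 to 3.45 TPM, than in BM lines, at 7.23 to 10.1 TPM (-1.54, adjusted p = 0.0195 by limma). Cbfb, the shared partner of the RUNX proteins, had a group mean of 183 TPM in both embryonic groups and of 165 TPM in BM lines, and was not called.

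Zeb1, the relative of Zeb2, was at 2.61 to 3.49 TPM in the FL lines and at most 0.03 TPM in the BM lines (2.02, adjusted p = 0.0300 by limma), and spread from 0.05 to 4.68 TPM in the YS lines. Id1 was highest in FL lines, at 436, 679 and 567 TPM, against 159 to 237 TPM in the YS lines and 197 to 296 TPM in the BM lines. It was called for FL against BM lines (1.12, adjusted p = 0.0102 by limma), which was lost without FL line 2 or BM line 3, and for YS against FL lines (-1.52, adjusted p = 0.0157), which held with any 1 line left out. The E protein genes Tcf3, Tcf4 and Tcf12 and the inhibitor gene Id2 were not called in any comparison. Rxra, the shared partner of nuclear receptors, was called as higher in FL than in BM lines (1.12, adjusted p = 0.0306 by limma) and lost the call without BM line 1. Ddit3, a stress-induced C/EBP relative, was called as higher in FL than in BM lines (1.23, adjusted p = 0.0723 by limma) and lost the call in 5 of the 9 fits.

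**Figure D5:**
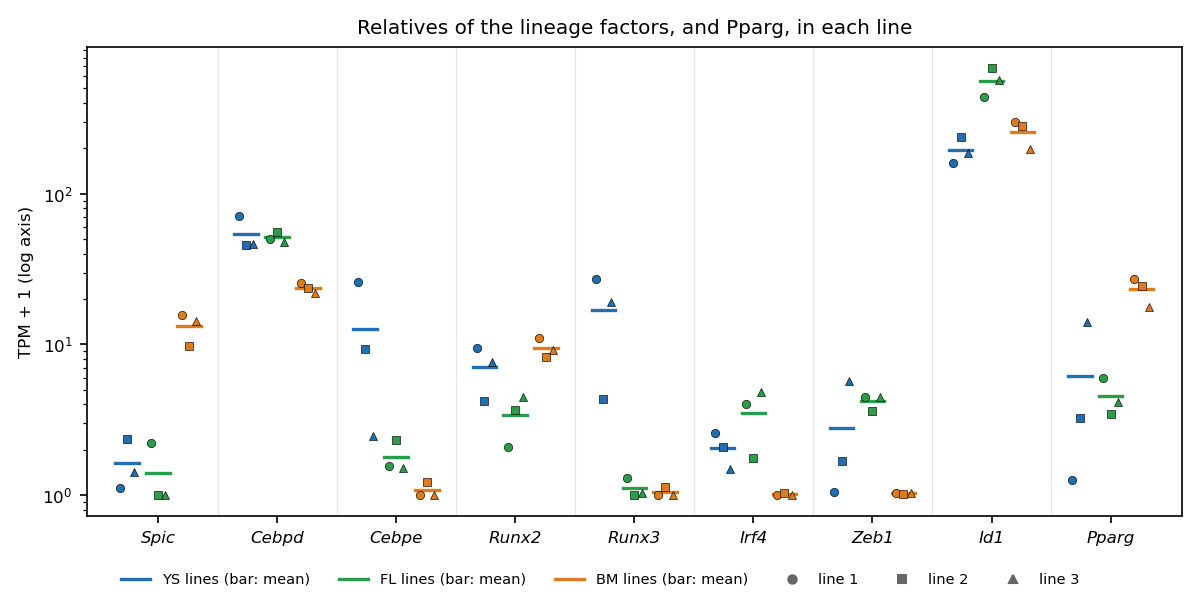
Relatives of the lineage factors, with Pparg, in each line as TPM + 1 on a log axis, with group means as bars. Spic and Pparg are highest in BM lines, Cebpe and Runx3 in YS lines, and Irf4, Zeb1 and Id1 have their highest group mean in FL lines.

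Of 12 factors of particular tissue macrophages, 9 passed the filter, and Gata6 and Sall1, which mark peritoneal macrophages and microglia, were at or under 0.09 TPM in every line. Between YS and BM lines 1 was called as higher and 2 as lower, between FL and BM lines 2 as lower, and between YS and FL lines 1 as higher and 2 as lower in YS lines, or 3, 2 and 3 of the 9 where 12.8%, 10.3% and 3.79% of all genes were called. Of these calls 0, 0 and 1 were made in every fit that left out 1 line. The median log2 differences were -0.52, 0.11 and -0.22, against 0.11, 0.09 and 0.02 for all genes. Pparg, the factor of alveolar macrophages, was at 26.2, 23.6 and 16.7 TPM in the BM lines, 2.43 to 4.97 TPM in the FL lines and 5.17 ± 6.86 TPM (SD, n = 3) in the YS lines, of which line 3 was highest. It was called as lower than in BM lines in both (-2.57, adjusted p = 0.0324, and -2.38, adjusted p = 0.0523, by limma). The first call was lost without BM line 1 and the second in 5 of the 9 fits, and the first difference ranged from -3.50 to -1.76, its value without YS line 1, where it was still called. Nr4a1, the factor of patrolling monocytes, was at 9.40 to 14.6 TPM in the YS lines and 0.79 to 3.76 TPM in the FL lines (2.14, adjusted p = 0.0214 by limma), a call that held with any 1 line left out. Its calls against BM lines, and those of Klf2 and Klf4 in YS lines, were each lost in 3 or more of the 9 fits.

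Myeloid target genes of PU.1 and the C/EBP factors moved in both directions. Of 14 listed, 13 passed the filter, and 4 were called as higher and 3 as lower in YS than in BM lines, 4 as higher and 1 as lower in FL than in BM lines, and 1 as lower in YS than in FL lines. Over all genes, 12.8%, 10.3% and 3.79% were called in these comparisons. The median log2 differences were 0.06, 0.38 and -0.49, against 0.11, 0.09 and 0.02 for all genes. Csf1r, the receptor for M-CSF and a direct PU.1 target, was at 1086, 1882 and 1889 TPM in the YS lines, 2145 to 2441 TPM in the FL lines and 1811 to 1879 TPM in the BM lines, and was not called. The same held for Itgam, which encodes CD11b, and for Btk. Fcgr1, Fcgr3, Cybb and Msr1, which encode Fcγ receptors, a subunit of the phagocyte oxidase and a scavenger receptor, were higher in YS and FL than in BM lines in every fit.

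Fcgr1 was at 122 to 329.9 TPM in the YS lines, at 110.1 to 172 TPM in the FL lines, and at 5.47, 42.1 and 1.68 TPM in the BM lines 1 to 3. Its log2 differences from BM lines were 4.65 (adjusted p = 0.00761) for YS and 4.02 (adjusted p = 0.0142) for FL lines by limma, with 5.77 and 5.15 without BM line 2 and a lowest value of 3.77 and 3.14 over the fits that left out 1 line. Fcgr3, which shares long stretches of sequence with other Fcγ receptor genes, was at 126 TPM in BM line 2 and at 36.4 and 21.9 TPM in the other BM lines, against at least 297 TPM in YS and FL lines. In BM line 2 the excess over the other BM lines was 11.7% of YS line 2 for Fcgr1, 19.7% for Fcgr3 and 15.0% for Mrc1. Csf2ra, a chain of the GM-CSF receptor, went the other way, at 197 to 233 TPM in the BM lines against 28.2, 53.1 and 91.3 TPM in the YS lines and 25.3 to 69.1 TPM in the FL lines (-2.04, adjusted p = 0.0151, and -2.10, adjusted p = 0.0155, by limma). The calls of Itgb2 and Lyz2 as lower in YS lines were lost without single lines, YS line 1 among them for the comparisons with BM lines, and Lyz2 shares reads with its near-identical neighbour Lyz1.

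Of 7 target genes of IRF8 listed, 4 passed the filter. Cybb, which the list shares with the preceding one, was called as higher in both embryonic groups, at 191 to 238 TPM in the YS lines, 114 to 239 TPM in the FL lines and 24.5, 40.9 and 2.77 TPM in the BM lines (3.72, adjusted p = 0.0102, and 3.56, adjusted p = 0.0135, by limma). Without BM line 2 these differences were 4.41 and 4.26, and their lowest values with 1 line left out were 2.68 and 2.52. Batf3, a factor of dendritic cells, was at 52.0 TPM in YS line 1 and at 7.62 and 3.78 TPM in the other YS lines, against at most 2.49 TPM elsewhere. It was called for YS against BM lines (2.37, adjusted p = 0.0607 by limma), was 1.36 and still called without YS line 1, reached 3.09 without another line, and lost the call without any 1 BM line. Klf4, which IRF8 induces in monocytes, was called as lower in YS than in BM and FL lines, and both calls were lost in 7 of the 9 fits. The median log2 difference of the 4 genes was 1.15 for YS against BM lines, 0.28 for FL against BM lines and -0.05 for YS against FL lines. For all genes it was 0.11, 0.09 and 0.02.

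For each factor called in any comparison, the 2 tested genes with the closest pattern were taken by Pearson's r of log2(TPM + 1) over the 9 libraries, as a description of libraries that share their groups. For Irf8 they were Mvb12a (r = 0.994) and Foxn3 (0.988). For Cebpa they were Arfgap1 (0.970) and Slc3a2 (0.969), and for Maf they were Rcsd1 (0.994) and Wwc2 (0.991). Rcsd1 was at 109, 66.6 and 49.6 TPM in the YS lines, 84.5, 119 and 74.6 TPM in the FL lines, and 1.96, 12.6 and 1.79 TPM in the BM lines. Like Maf it was highest among BM lines in line 2, where its excess was 16.1% of YS line 2. The pattern of Cebpa was flatter in its nearest gene, since Arfgap1 ranged only from 37.0 to 48.3 TPM over the 9 lines.

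Groups that did not overlap were counted for the 8 tested factors as well. Between YS and BM lines 3 of them did not overlap, Irf8, Maf and Runx1, all higher in YS lines, against 49% of all genes, 30.3% as higher and 18.7% as lower in YS lines. Between FL and BM lines 6 did not overlap, all but Cebpb and Id3, and all 6 were higher in FL lines, against 49.5% of all genes and 31% of all genes in that direction. Between YS and FL lines 4 did not overlap, against 26.1% of all genes. Of these Spi1, Cebpa and Zeb2 were higher in FL lines and Runx1 in YS lines. The median log2 difference of the 8 factors was 0.13, 0.56 and -0.32 in the 3 comparisons.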

How the data were processed

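Bulk RNA-seq libraries of 3 YS, 3 FL and 3 BM lines were grouped by the sample labels. Libraries were poly(A)-selected and strand-specific, and were read from one end over 75 nt. The authors deposited TPM for 24411 gene symbols, with no depth. The submitters' processing notes name Trim Galore 0.6.6, STAR 2.7.9a and RSEM 1.3.3, while the genome build and annotation are not given in the sources used here. Genes that reached 1 TPM in 3 or more of the 9 libraries were tested on log2(TPM + 1) in 1 model over all lines with limma 3.58.1 in R 4.3.3, with an intensity trend and Benjamini-Hochberg adjustment over all 11753 genes tested within each comparison. A call needed a change over 2-fold beside a false discovery rate under 0.1. All adjusted p-values of genes come from limma. Ratios of TPM + 1 within a line were compared by exact two-sided permutation tests. Scripts were tested on simulated data. The 9 factors and the gene lists were chosen with earlier results of these data known, as textbook lists of relatives, tissue factors, and targets of PU.1, C/EBP, LXR, MAF and IRF8 factors. Named genes were the 9 factors, the genes of these lists, and the 2 closest patterns of each called factor. Zeb2os was named after its values were seen, and the 45 genes used to describe BM line 2 were picked after the data were seen. Some listed genes are not reported here. Alternatives changed the pseudocount, filter, scaling, variance trend, thresholds, libraries in the model, replicate block and lines. The main model did not pair lines by number, and the deviations of same-numbered lines correlated between -0.12 and 0.09.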

Additional observations from a re-analysis of the deposited data

How the results depend on the processing

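The calls of Maf and Irf8 against BM lines held under each alternative run. With no fold threshold 3 of the 8 factors passed between YS and BM lines, beside 37.9% of all genes. Between FL and BM lines 5 passed, beside 27.6% of all genes. None passed between YS and FL lines, where 12.8% of all genes did. Leaving out 1 line in turn gave 2 factors for YS against BM lines, 2 to 3 for FL against BM lines, where Cebpa was lost, and 0 to 1 for YS against FL lines, where Cebpa was gained without YS line 2 or FL line 1. Signs turned only for differences that had not passed their test. Spi1 for YS against BM lines became -0.016 under quantile normalization and -0.098 under median-of-ratios scaling, Cebpa for YS against BM lines -0.018 under quantile normalization, Id3 for FL against BM lines -0.024 under median-of-ratios scaling, and the ratio of Nr1h2 to Nr1h3 for YS against FL lines -0.051 with a pseudocount of 4. Over the fits without 1 line, the YS against BM differences ranged from -0.044 to 0.071 for Spi1, -0.20 to 0.72 for Cebpa, -0.28 to 0.086 for Cebpb and -0.48 to 0.30 for Id3. Id3 ranged from -0.20 to 0.42 for FL against BM lines and from -0.58 to 0.23 for YS against FL lines. The ratio of Cebpb to Cebpa ranged from -1.002 to 0.28 for YS against BM lines, and that of Nr1h2 to Nr1h3 from -0.10 to 0.35 for YS against FL lines. With the replicate block, the factors called were 2, 3 and 0 in the 3 comparisons, as without it, and all genes called were 1503, 1191 and 409, against 1504, 1211 and 446. None of the 3 same-numbered pairs of any comparison correlated above 0.1, and pairs with different numbers correlated between -0.14 and 0.12. With so few lines these values cannot tell whether same-numbered lines share a cell pool or a batch. Counts of all genes between YS and FL lines were the least stable. They fell from 446 to 280 with a pseudocount of 4, to 81 with only those 2 groups in the model, to 199 and 191 without FL line 2 or 3, and to 282 and 292 without BM line 1 or 3. Quantile normalization split the calls into 724 higher and 763 lower for YS against BM lines, against 890 and 614, and into 592 and 593 for FL against BM lines, against 706 and 505. Median-of-ratios scaling gave 763 and 741 for YS against BM lines. With TPM alone, counting error is unknown, and genes near 1 TPM such as Nr1h3 cannot be resolved.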
